A study of Mus musculus with 6 samples.

Results

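The immediate early transcription factor genes described here are the AP-1 genes Fos, Fosb, Jun and Junb, the EGR genes Egr1, Egr2 and Egr3, and the orphan nuclear receptor genes Nr4a1, Nr4a2 and Nr4a3. They were chosen by name and are 10 of the 33696 genes in the count matrices, and all 10 were read in at least 1 class of cells in every library. Single-cell RNA and T cell receptor (TCR) libraries were made from liver mononuclear cells of mice, sorted for the pan-leukocyte marker CD45 after 12 weeks on diet. The iNKT KO HFD+HDCA library came from Jα18-/- mice, which lack the TCR alpha joining segment that invariant natural killer T (iNKT) cells need, fed a 60% high fat diet (HFD) with 0.25% hyodeoxycholic acid (HDCA), a bile acid. The WT HFD+HDCA library came from wild-type mice on that same diet, and the WT HFD library from wild-type mice on the 60% HFD alone, so that all 3 groups had the high fat diet. Every group was 1 RNA library. How many mice each was made from is not stated in the labels. No difference between groups could therefore be tested, and every interval below is a 95% interval for counting error only. The knockout is of the germ line, so it is present in every cell of those mice, and Traj18 had 0 UMIs in the iNKT KO library, against 160 in WT HFD+HDCA and 172 in WT HFD.

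Immediate early genes are transcribed within minutes of a stimulus, without new protein synthesis. FOS and JUN proteins pair as the AP-1 factor, EGR proteins are zinc finger factors that act downstream of MAP kinases, and NR4A proteins are nuclear receptors that act without a known hormone and limit T cell activation. Egr2, Egr3 and Nr4a1 report antigen receptor signalling in T and B cells and are called TCR-linked below. The other 7 are called dissociation-linked, since Fos, Jun, Egr1 and others of them are also known to be transcribed while tissue is being dissociated into cells. A level of any of them in sorted cells can thus date from the animal or from the preparation, which these libraries cannot tell apart.

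The NR4A promoters are printed because Nr4a2 set NK cells, CD8 T cells and iNKT cells apart below. Nr4a1 and Nr4a3 did not separate all of these cells and are printed as genes of the same family. The promoter of Fos is printed because, among the members, it ordered the classes most clearly. Each is the 250 bases before the RefSeq start on the gene's own strand (build GRCm38.p6), and the capitals mark TGACG or its complement CGTCA, the core of the cAMP response element at which CREB factors bind.
Nr4a1, chr15:101266596-101266845, plus strand: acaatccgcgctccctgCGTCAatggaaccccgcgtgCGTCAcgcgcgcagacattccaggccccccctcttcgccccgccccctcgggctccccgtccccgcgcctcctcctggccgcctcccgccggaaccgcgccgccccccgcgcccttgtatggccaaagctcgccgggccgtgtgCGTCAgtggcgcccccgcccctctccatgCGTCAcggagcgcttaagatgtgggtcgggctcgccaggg
Nr4a2, chr2:57124004-57124253, minus strand: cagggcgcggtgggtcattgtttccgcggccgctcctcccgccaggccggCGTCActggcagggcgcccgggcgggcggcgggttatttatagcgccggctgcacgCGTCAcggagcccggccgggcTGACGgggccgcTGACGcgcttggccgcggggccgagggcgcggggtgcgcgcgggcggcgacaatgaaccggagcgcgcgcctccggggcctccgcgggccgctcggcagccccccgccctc
Nr4a3, chr4:48045055-48045304, plus strand: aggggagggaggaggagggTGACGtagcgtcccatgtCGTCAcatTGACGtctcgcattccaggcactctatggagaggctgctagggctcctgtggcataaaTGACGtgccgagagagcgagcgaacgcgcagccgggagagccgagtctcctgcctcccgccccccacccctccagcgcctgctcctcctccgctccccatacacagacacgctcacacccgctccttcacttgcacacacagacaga
Fos, chr12:85473640-85473889, plus strand: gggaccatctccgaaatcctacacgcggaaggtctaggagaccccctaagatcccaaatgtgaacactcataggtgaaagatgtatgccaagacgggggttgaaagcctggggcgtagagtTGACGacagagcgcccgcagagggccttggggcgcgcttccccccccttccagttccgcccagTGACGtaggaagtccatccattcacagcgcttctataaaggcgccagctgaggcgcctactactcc
TGACG occurred on either strand 4 times in each of the 3 NR4A promoters, 2 times in Fos and at some of the annotated starts of Egr2, 1 time in Fosb and in Junb, and 0 times in Jun. Of 32851 promoters of this length, 17.8% held it at least once, 3.90% at least 2 times and 0.137% at least 4 times, a count chosen for mention after these sequences had been read. The full element TGACGTCA, which contains TGACG on both strands, was in 1.55% of promoters and in none of the 8 members with an entry. The AP-1 site TGACTCA was in 4.46% of promoters, the NR4A monomer site AAAGGTCA in 1.34% and the EGR site GCGGGGGCG in 2.57%. Of these, only the EGR site was found in members, 1 time each in Fosb and Nr4a1. A match describes letters in these windows and not a bound factor.

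The libraries held 46600746 UMIs in 7153 cells (iNKT KO HFD+HDCA), 70776925 in 10228 (WT HFD+HDCA) and 44332213 in 6479 (WT HFD). After filters, the iNKT class, defined by a TRAV11 or TRAV11D to TRAJ18 contig, had 1, 451 and 330 cells in that order of libraries, and its single iNKT KO cell was left out. Other alpha-beta T cells, with both TCR chains and no such contig, numbered 1829, 2618 and 1840. NK-like clusters held 599, 917 and 541 cells, ILC1-like (type 1 innate lymphoid) 334, 205 and 139, B-like 1703, 2441 and 1593, monocyte-like 210, 400 and 174, and patrolling monocyte-like 145, 179 and 98. Zbtb16, the factor that defines the iNKT lineage, had 147 CPM (UMIs of the gene per 1000000 UMIs of the class) in WT HFD+HDCA and 131 in WT HFD iNKT cells, against 6.40 to 11.5 CPM in other alpha-beta T cells. It was not particular to iNKT cells, since patrolling monocyte-like cells had 141 CPM in iNKT KO HFD+HDCA, 159 in WT HFD+HDCA and 155 in WT HFD. The patrolling class also held B cell RNA, with all 23 B markers read and summed at 5075, 5275 and 5224 CPM, against 23189 to 23664 CPM in B cells. A further cluster led by hemoglobin genes with B cell genes, 13.7%, 8.63% and 7.39% of kept cells, stands outside the B class. Between 67 and 93 cell barcodes were shared by each pair of libraries.

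Fos set the classes in 7 separate steps, since its ranges over the libraries did not overlap between any neighbours in the order. No other member did so, and how many of all genes do was not counted. Monocytes had 1244 CPM in iNKT KO HFD+HDCA, 1169 in WT HFD+HDCA and 1329 in WT HFD, and B cells had 801, 774 and 813 in the same libraries. Patrolling monocytes followed at 581 to 733 CPM and other alpha-beta T cells at 297 to 364. The iNKT cells had 235 CPM in WT HFD+HDCA and 243 in WT HFD, above NK cells at 206 to 225 and ILC1 at 135 to 151. The monocyte level was 8.94, 7.72 and 9.81 times the ILC1 level within the 3 libraries. Jun, the partner of FOS in AP-1, also led in monocytes at 386 to 414 CPM and was lowest in iNKT cells of WT HFD+HDCA, at 166 CPM; WT HFD iNKT cells had 217 CPM, next to 208 in ILC1. Fosb did not follow Fos: its B cell level of 214 to 253 CPM was above the range of every other class, and monocytes, highest for Fos, had 61.7 to 75.9 CPM. Junb, an AP-1 partner that often dampens Jun activity, was high in every class, at 1164 to 2196 CPM, and made up 36.2% to 72.7% of all the members' UMIs in a class. A UMI counts 1 molecule whatever its length. How well each gene was captured was not measured, so levels of different genes can be compared only roughly.

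**Figure D1:**
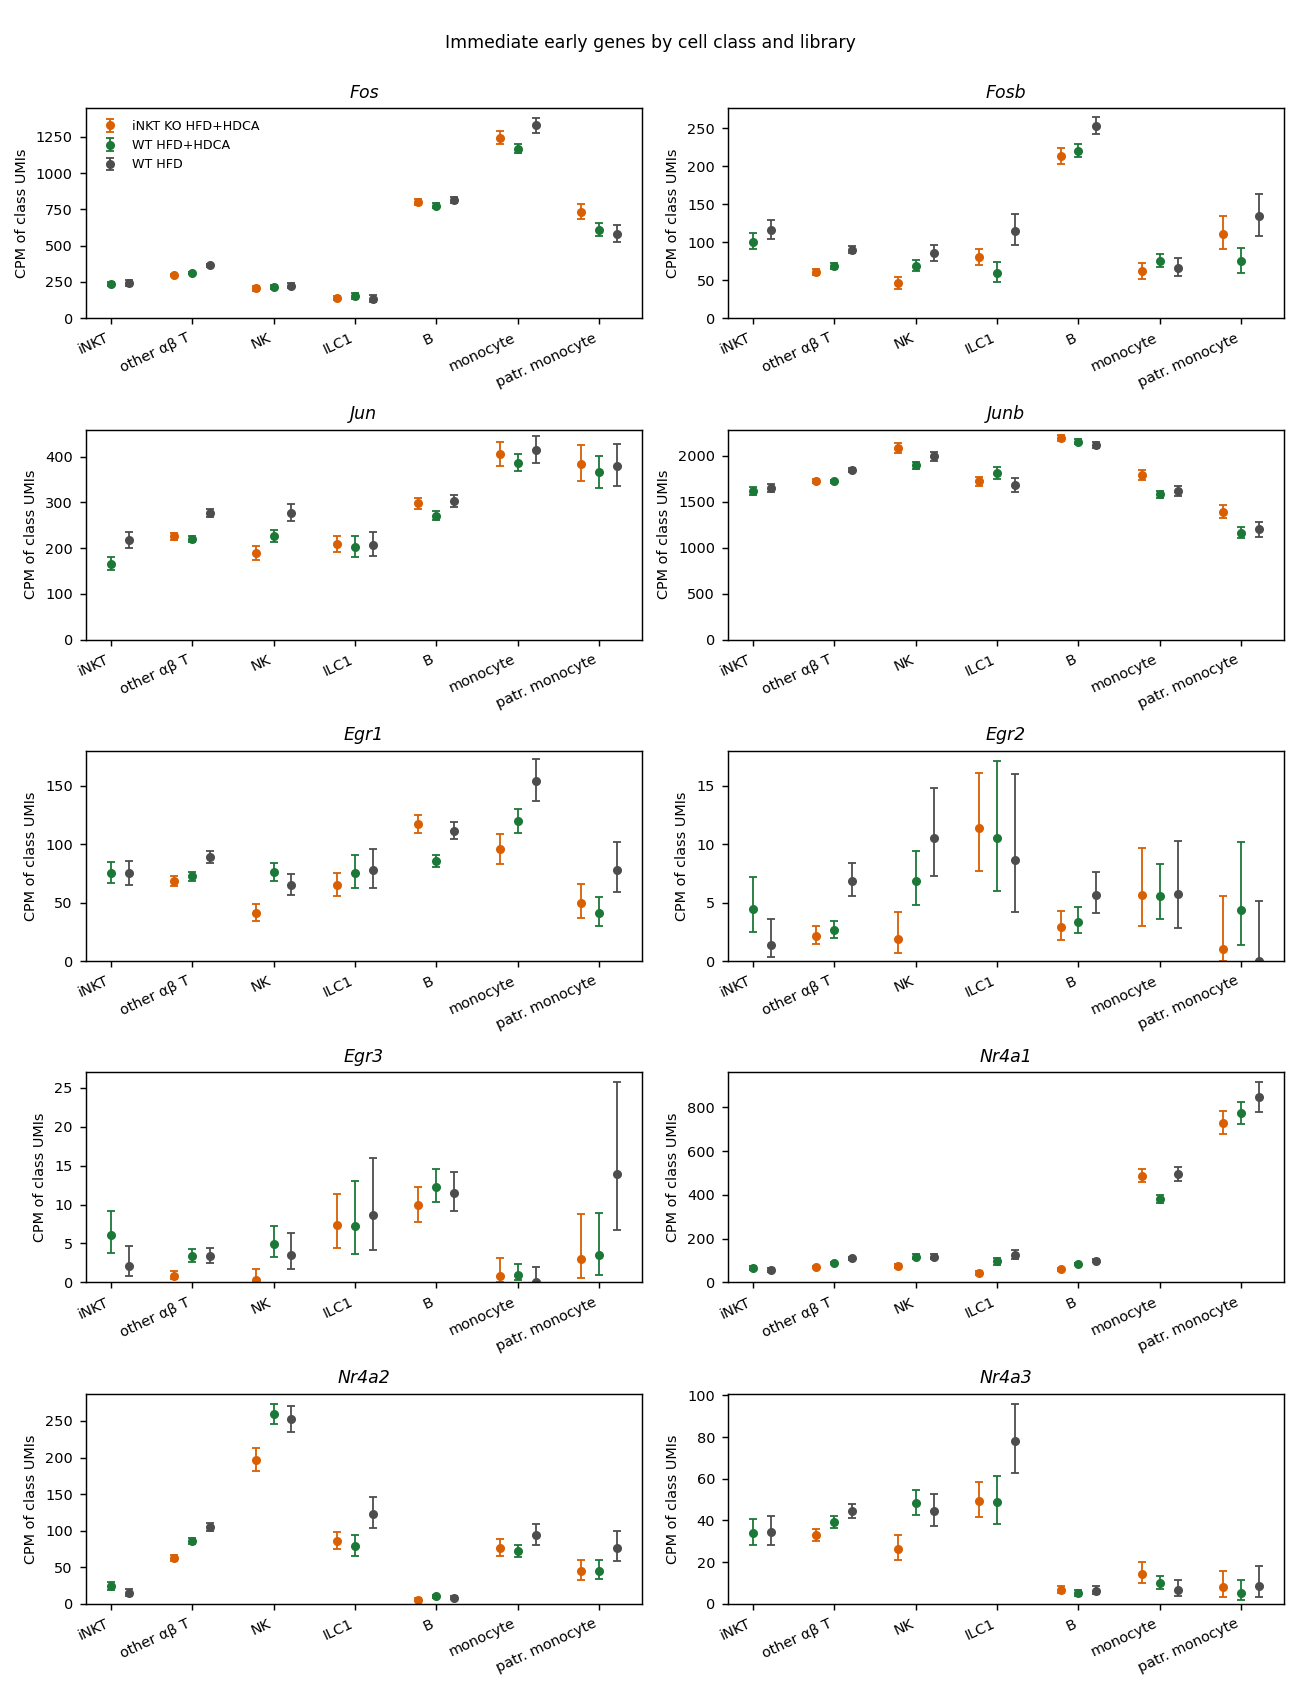
Level of each member in CPM (UMIs of the gene per 1000000 of the class; linear axis from 0) in the 7 classes, with iNKT KO HFD+HDCA, WT HFD+HDCA and WT HFD side by side and exact Poisson 95% intervals as bars. Fos is highest in monocytes at 1169 to 1329 CPM, Nr4a1 in patrolling monocytes at 727 to 845 CPM and Nr4a2 in NK cells at 196 to 260 CPM; iNKT KO has no iNKT point.

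Egr1, the most widely induced EGR gene, had 95.6, 119 and 154 CPM in monocytes of iNKT KO HFD+HDCA, WT HFD+HDCA and WT HFD, and 117, 85.4 and 111 CPM in B cells. The other 5 classes lay between 40.9 and 88.8 CPM. Egr2 and Egr3, which restrain T cell activation and shape the NKT lineage, were low in every class, at no more than 14.0 CPM. Egr2 had 11.4, 10.5 and 8.68 CPM in ILC1 and 1.91, 6.84 and 10.5 CPM in NK cells of the 3 libraries, and 4.41 CPM in WT HFD+HDCA and 1.41 CPM in WT HFD iNKT cells. Egr3 was highest in B cells apart from 1 patrolling value, at 9.88, 12.3 and 11.4 CPM (79, 142 and 87 UMIs). That patrolling value, 14.0 CPM in WT HFD, was 10 UMIs, and after leaving out barcodes with at least 2 UMIs of the B cell gene Cd79a all 3 patrolling groups had 0 Egr3 UMIs.

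Nr4a1 and Nr4a2 were highest in different classes. Nr4a1, required for patrolling monocytes to form, had 727, 772 and 845 CPM there in iNKT KO HFD+HDCA, WT HFD+HDCA and WT HFD, and 488, 381 and 494 CPM in classical monocytes. Every lymphoid class was at 41.4 to 125 CPM. The iNKT range of 56.9 to 64.5 CPM lay below those of NK and other alpha-beta T cells and overlapped those of ILC1 and B cells. Without the barcodes with at least 2 Cd79a UMIs, the patrolling level was 951, 954 and 1025 CPM in 100, 137 and 70 cells. In cells thinned to 2000 UMIs each, at least 1 Nr4a1 UMI was found in 70.5%, 75.6% and 75.3% of patrolling monocytes, against 8.71% and 6.97% of WT HFD+HDCA and WT HFD iNKT cells; unthinned, the shares were 92.4%, 90.5% and 91.8% against 20.6% and 24.8%. The class medians were 5326 to 6325.5 UMIs per patrolling monocyte and 7348 and 7818 per iNKT cell. Nr4a2, best known from dopamine neurons and also induced in activated lymphocytes, was highest in NK cells at 196, 260 and 252 CPM. Its lowest level was in B cells, at 5.75, 9.97 and 8.16 CPM, so that NK cells were 34.1, 26.0 and 30.9 times higher than B cells within a library. The iNKT cells stood next to lowest, with 24.3 CPM in WT HFD+HDCA and 14.8 in WT HFD. Nr4a3 was read in the T, NK and ILC1 classes at 26.5 to 78.2 CPM and in B cells and both monocyte classes at 5.12 to 14.3 CPM. Its highest value, 78.2 CPM in WT HFD ILC1, was 36.8 CPM without 1 cell, against 42.3 CPM in WT HFD NK cells without their own top cell.

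Within each wild-type library, iNKT cells had fewer Nr4a2 UMIs than other alpha-beta T cells, slightly less Fos and Jun, and more Fosb. Nr4a2 had 24.3 CPM in iNKT cells against 85.9 CPM in other alpha-beta T cells of WT HFD+HDCA (88 and 1773 UMIs), a ratio of 0.282 (0.225 to 0.350). In WT HFD it had 14.8 CPM in iNKT cells against 105 in other alpha-beta T cells, a ratio of 0.141 (0.101 to 0.192). Nr4a1 was 0.727 (0.632 to 0.834) of the other alpha-beta T level in WT HFD+HDCA and 0.520 (0.440 to 0.612) in WT HFD. Fos was at 0.754 (0.701 to 0.810) and 0.668 (0.616 to 0.723), the second value just short of the 1.5-fold line of 0.667; with mitochondrial, ribosomal, immunoglobulin and TCR genes left out of the total, the WT HFD log2 ratio was -0.73, past that line. Fosb was higher in iNKT cells, at 1.46 (1.30 to 1.64) and 1.29 (1.14 to 1.46). Egr1 and Junb stayed between 0.844 and 1.04.

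A gene was counted as called when its ratio reached 1.5 or 0.667 with at least 50 UMIs in the pair. In WT HFD+HDCA, 2 members were called higher in iNKT cells (Egr2 and Egr3) and 1 lower (Nr4a2), against 12.8% of 11341 genes called higher and 10.0% lower. In WT HFD, 0 were higher and 4 lower (Egr2, Egr3, Nr4a1 and Nr4a2), against 11.7% higher and 10.4% lower of 10769 genes. The Egr2 and Egr3 calls pointed opposite ways in the 2 libraries and rest on few UMIs. Egr2 had 16 UMIs in iNKT cells and 54 in other alpha-beta T cells of WT HFD+HDCA, and 4 against 101 in WT HFD. Egr3 had 22 against 69 and 6 against 49 UMIs in those pairs. In WT HFD+HDCA, the single cell with the most UMIs held 43.8% of the iNKT Egr2 UMIs and 50% of the Egr3 UMIs, and without each gene's top cells the log2 ratios were 0.07 for Egr2 and 0.04 for Egr3. In WT HFD the Egr3 log2 ratio was -0.65, but 0.21 with equal weight per cell and 1.25 in thinned cells. The share of thinned cells with any UMI of Egr2, Egr3 or Nr4a1 was 9.38% (6.84 to 12.5) in iNKT cells against 15.1% (13.7 to 16.5) in other alpha-beta T cells of WT HFD+HDCA, and 7.58% (4.96 to 10.98) against 17.0% (15.3 to 18.8) in WT HFD. Unthinned, these shares were 21.7% against 37.4% and 25.5% against 42.0%; thinning left out 3 and 7 cells in WT HFD+HDCA and 0 and 5 in WT HFD.

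**Figure D2:**
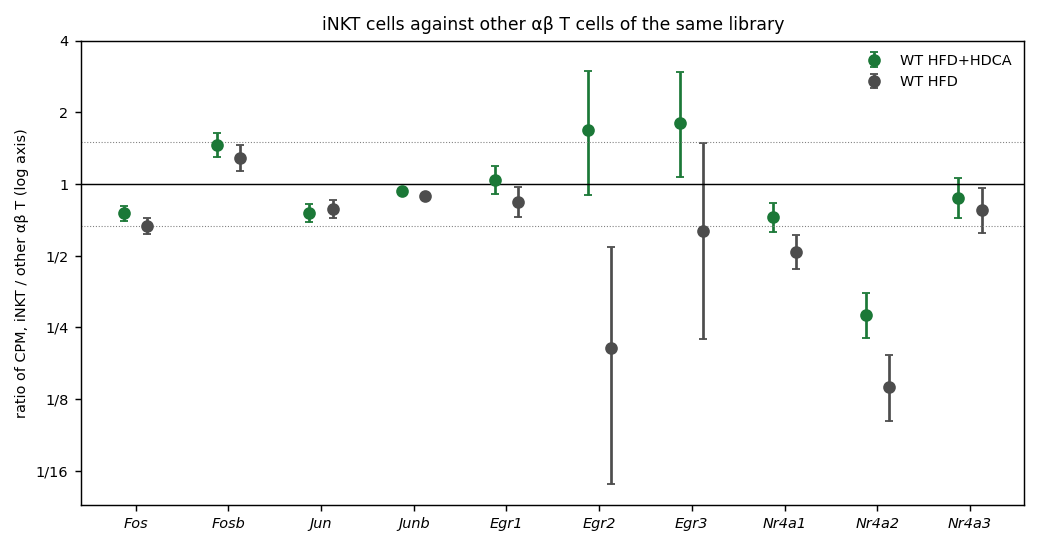
Ratio of the iNKT level to the other alpha-beta T level for each member in WT HFD+HDCA and WT HFD (log axis), with conditional exact 95% intervals for counting error and dotted lines at 1.5 and 0.667. Nr4a2 lies at 0.282 and 0.141, the lowest member in each library; the interval of Egr2 in WT HFD, 0.0550 to 0.543, overlaps that of Nr4a2.

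Other signalling genes were spread to both sides between these classes. Of 30 genes of the TCR signal response list, 10 were called higher in iNKT cells of each library and 7 (WT HFD+HDCA) or 8 (WT HFD) lower. The list's median log2 ratio was 0.16 and 0.20, beside 0.13 and 0.11 over all genes. Il4, the cytokine that resting iNKT cells hold as ready message, had 97.0 CPM in iNKT against 2.52 CPM in other alpha-beta T cells of WT HFD+HDCA, and 95.4 against 1.43 CPM in WT HFD. In WT HFD the lowest ratios of the list were 0.0231 for the chemokine gene Ccl3 and 0.0322 for Pdcd1, which encodes the inhibitory receptor PD-1. Of 24 other early response genes counted, 2 were higher and 3 lower in each library. Dusp1, a MAP kinase phosphatase, had 397 against 174 CPM in WT HFD+HDCA and 458 against 182 CPM in WT HFD, and Klf2, which keeps T cells circulating, was at 0.359 and 0.355.

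Other alpha-beta T cells were themselves uneven. The clusters called CD8 T were led by Gzmk, Ccl5, Cd8b1 and Pdcd1, and those called CD4 T by Tnfrsf4, Cd4, Foxp3 and Ctla4. The naive clusters had Cd8b1 and Cd8a, or Cd4, among their leading genes. These names therefore do not stand for all CD8 or all CD4 T cells. CD8 T-like clusters had the highest Nr4a2 level, with 179 CPM in iNKT KO HFD+HDCA, 169 in WT HFD+HDCA and 246 in WT HFD, while naive T-like clusters had 32.3, 43.5 and 42.5 CPM and CD4 T-like clusters 50.6, 42.6 and 54.8 CPM. Jun ran the other way, at 330, 349 and 419 CPM in naive cells against 129, 135 and 116 CPM in CD8 T cells. Fos was 335, 382 and 438 CPM in naive cells against 143, 147 and 161 CPM in CD8 T cells. CD4 T cells had the most Egr1, at 125, 123 and 157 CPM, and the most Fosb, at 126, 98.9 and 175 CPM.

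Set against each subset of its own library, the iNKT Nr4a2 level remained lower. It was 0.143 (0.113 to 0.180) of the CD8 T level and 0.558 (0.433 to 0.713) of the naive level in WT HFD+HDCA, and 0.0604 (0.0431 to 0.0827) and 0.349 (0.245 to 0.485) in WT HFD. Nr4a1 did not differ from CD8 T cells beyond counting error, at 0.923 (0.767 to 1.11) and 0.992 (0.785 to 1.26), but was 0.724 and 0.464 of the naive level. The Jun ratio turned round with the subset chosen. It was 0.476 (0.434 to 0.521) and 0.519 (0.474 to 0.567) of the naive level, but 1.23 (1.09 to 1.39) and 1.88 (1.63 to 2.18) of the CD8 T level. Fos was likewise below naive cells, at 0.615 and 0.555, and above CD8 T cells, at 1.60 and 1.51. Fosb was above the naive level, at 2.06 (1.76 to 2.41) and 1.77 (1.52 to 2.06), but relative to CD4 T cells it was at 1.02 (0.866 to 1.20) in WT HFD+HDCA and 0.664 (0.564 to 0.782) in WT HFD.

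**Figure D3:**
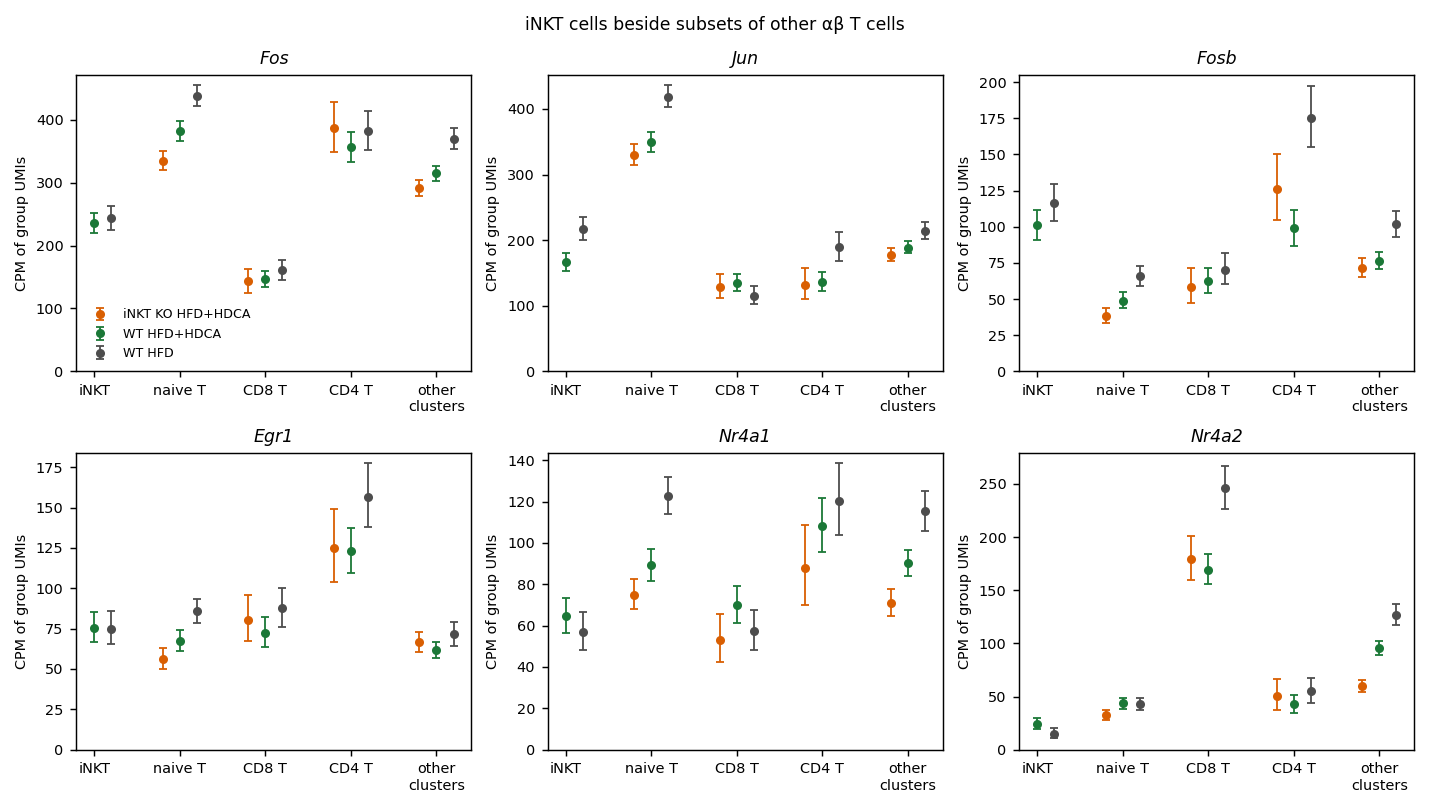
Level in CPM (linear axis from 0) of Fos, Jun, Fosb, Egr1, Nr4a1 and Nr4a2 in iNKT cells and in the naive, CD8, CD4 and remaining clusters of other alpha-beta T cells, for iNKT KO HFD+HDCA, WT HFD+HDCA and WT HFD. Nr4a2 lies at 14.8 to 24.3 CPM in iNKT cells and 169 to 246 CPM in CD8 T cells, while Jun reaches 330 to 419 CPM in naive cells.

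Members also differed with clonotype size among other alpha-beta T cells. Nr4a2 had 90.8, 199 and 262 CPM in clonotypes of 5 or more cells in iNKT KO HFD+HDCA, WT HFD+HDCA and WT HFD, against 55.4, 71.5 and 82.8 CPM in clonotypes of 1 cell. Without the largest clonotype of each library (39, 29 and 76 cells), the level in clonotypes of 5 or more cells was 98.1, 198 and 180 CPM. Jun had 160, 105 and 104 CPM in clonotypes of 5 or more cells, against 241, 238 and 310 CPM in those of 1 cell; without the largest clonotype the level in clonotypes of 5 or more cells was 144, 101 and 173 CPM. Within CD8 T cells alone, Nr4a2 had 179 CPM in clonotypes of 2 or more cells against 180 CPM in those of 1 cell in iNKT KO HFD+HDCA, 210.2 against 109 CPM in WT HFD+HDCA, and 261 against 223 CPM in WT HFD. Jun in the same groups of CD8 T cells had 128 against 131 CPM, 127 against 147 CPM and 90.5 against 153 CPM, closer than over all other alpha-beta T cells. The largest WT HFD clonotype alone had 367 CPM of Nr4a2 and 16.7 CPM of Jun.

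With HDCA in wild-type mice, most members were level or lower, and by small amounts. Over the 7 classes, 60 pairs of values had at least 50 UMIs: the interval of the WT HFD+HDCA to WT HFD ratio lay below 1 in 30, spanned it in 28 and lay above it in 2. In other alpha-beta T cells 9 of 10 members were below 1 with intervals that left 1 out, and Egr3 was at 1.003 (0.685 to 1.48). The share of all genes whose intervals left 1 out was not counted, so neither count sets the members apart from other genes. The members' median log2 ratio in other alpha-beta T cells was -0.29, beside 0.00 over all genes. Fos had 312 CPM in WT HFD+HDCA against 364 in WT HFD, a ratio of 0.857 (0.827 to 0.889), Jun 220.2 against 277 (0.796, 0.763 to 0.830) and Nr4a1 88.7 against 109 (0.811, 0.758 to 0.868). Nr4a2 was at 0.817 (0.763 to 0.875), but at -0.11 on the log2 scale without the largest clonotype of each library, against -0.29 with it. Within naive T cells Fos was at 0.873 (0.825 to 0.924), Jun at 0.834 (0.786 to 0.884) and Nr4a1 at 0.726 (0.648 to 0.814). Within CD8 T cells Jun was at 1.17 (1.01 to 1.36), Junb at 1.16 (1.11 to 1.21), Nr4a1 at 1.22 (0.982 to 1.51) and Nr4a2 at 0.688 (0.612 to 0.774). The largest clonotype made up 28 of the WT HFD+HDCA and 67 of the WT HFD CD8 T cells, and without it Jun was at 0.921 (0.790 to 1.08), Junb at 1.02 (0.978 to 1.07), Nr4a1 at 1.25 (0.986 to 1.59) and Nr4a2 at 0.731 (0.643 to 0.832). The mix of subsets also differed: naive clusters were 32.1% of other alpha-beta T cells in WT HFD+HDCA against 44.3% in WT HFD, CD8 clusters 19.6% against 18.4%, CD4 clusters 14.8% against 12.4% and the remaining clusters 33.5% against 24.8%. Jun was below 1 in all 7 classes, from 0.765 in iNKT cells to 0.974 in ILC1, with intervals that left 1 out in iNKT, other alpha-beta T, NK and B cells.

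Of the 60 pairs, 9 were called lower past 1.5-fold with HDCA and 1 higher. The shares of all genes called are given class by class below. In other alpha-beta T cells 1 member was lower and 0 higher, against 2.64% of genes lower and 1.98% higher. This was Egr2, with 2.62 CPM in WT HFD+HDCA against 6.87 CPM in WT HFD, a ratio of 0.381 (0.268 to 0.535). In the CD8 T clusters it had 0 UMIs in 514 cells of WT HFD+HDCA against 37 UMIs in 339 cells of WT HFD. Of those WT HFD UMIs, 30 were in the 117 cells of clonotypes of 1 cell and 7 in the other 222 cells. How many cells held them was not counted. Over all other alpha-beta T cells thinned to 2000 UMIs, the Egr2 log2 ratio was -0.85, against -1.39 unthinned, and still a call. Without the top cell of each library Egr2 had 2.38 CPM in WT HFD+HDCA and 5.52 CPM in WT HFD. Any UMI of Egr2 or Egr3 was read in 0.804% and 0.926% of their thinned cells. In iNKT cells 1 member was higher and 0 lower, against 2.72% of genes higher and 1.92% lower. This was Nr4a2, with 24.3 against 14.8 CPM (88 against 42 UMIs) and a ratio of 1.63 (1.12 to 2.42); with each cell thinned to 2000 UMIs its log2 ratio was 0.48, short of the call. In ILC1, 3 of the 8 members counted were lower and 0 higher, against 2.74% and 3.14% of genes. Fosb had 59.9 CPM in WT HFD+HDCA ILC1 against 115 CPM in WT HFD, a ratio of 0.519 (0.393 to 0.682). Nr4a2 was at 0.641 (0.498 to 0.823) and Nr4a3 at 0.623 (0.452 to 0.858). A single WT HFD cell held 53.3% of the Nr4a3 UMIs of its class, and without the cell with the most UMIs in each library the log2 ratio was -0.04 for Nr4a3 and -0.50 for Nr4a2, neither a call.

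In patrolling monocytes 3 of the 7 members counted were lower with HDCA and 0 higher, against 4.59% and 4.08% of genes. Fosb had 74.8 CPM in WT HFD+HDCA against 134 CPM in WT HFD (0.558, 0.412 to 0.754), Egr1 40.9 against 78.2 CPM (0.523, 0.347 to 0.785) and Nr4a2 45.2 against 76.8 CPM (0.589, 0.395 to 0.877). A single WT HFD cell held 37.5% of that Egr1, and without the top cells the log2 ratio was -0.56. The Nr4a2 log2 ratio was -0.37 with equal weight per cell and -0.57 without the barcodes with at least 2 Cd79a UMIs. In NK cells Egr2 was the 1 member called, at 0.649 (0.395 to 1.07), against 2.06% of genes lower and 1.74% higher, and at -0.54 on the log2 scale with finer clusters it was not. In B cells Egr2 was again the 1 member called, at 0.598 (0.377 to 0.944), against 1.42% lower and 2.0% higher, with a log2 ratio of -0.37 once the hemoglobin-led cluster was added and -0.32 with doublets kept. In monocytes 0 members were called, against 2.37% of genes lower and 3.71% higher, although Egr1 at 0.776 (0.671 to 0.898), Nr4a1 at 0.772 (0.712 to 0.837) and Nr4a2 at 0.771 (0.639 to 0.931) all lay below 1. Thinned to 2000 UMIs a cell, the monocyte log2 ratios were 0.08 for Egr1, -0.23 for Nr4a1 and 0.04 for Nr4a2.

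**Figure D4:**
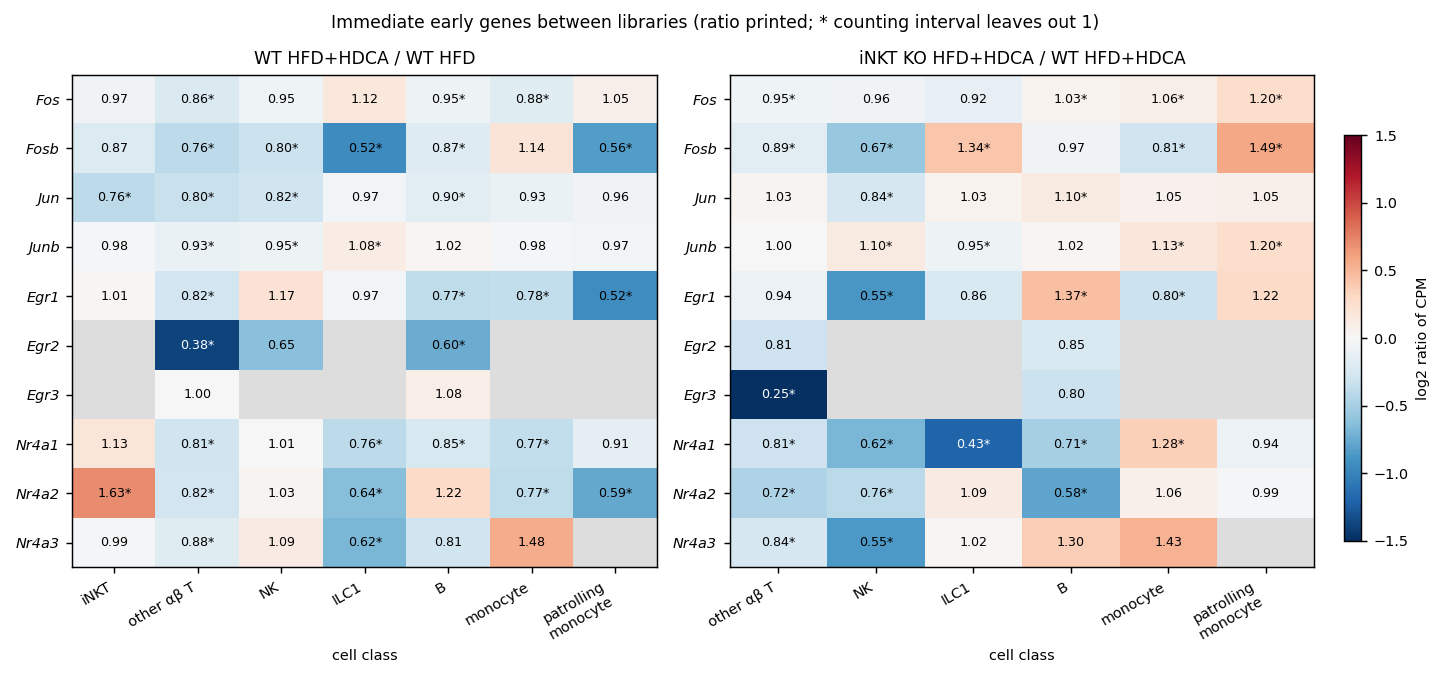
Heat maps of the log2 ratio of each member by class, for WT HFD+HDCA over WT HFD and for iNKT KO HFD+HDCA over WT HFD+HDCA; grey marks pairs with under 50 UMIs and a star an interval that leaves out a ratio of 1. The Jun row of the first map is below 0 in all 7 classes, and in the second map Nr4a1 runs from a ratio of 0.434 in ILC1 to 1.28 in monocytes.

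The comparison of iNKT KO HFD+HDCA with WT HFD+HDCA uses the same WT HFD+HDCA library as the HDCA comparison, so the 2 are not independent. In 51 pairs with at least 50 UMIs, the interval lay above 1 in 11, below 1 in 18 and spanned it in 22. Here too the share of all genes with such intervals was not counted. NK cells held 3 of the 6 calls, all lower in the knockout, against 3.29% of genes called lower and 2.69% higher in that class. Egr1 had 41.4 CPM in iNKT KO against 76.0 CPM in WT NK cells, a ratio of 0.545 (0.444 to 0.666). Nr4a3 had 26.5 against 48.3 CPM (0.548, 0.423 to 0.704) and Nr4a1 73.3 against 118 CPM (0.622, 0.532 to 0.724). Thinned to 2000 UMIs a cell, the Nr4a1 log2 ratio was -0.47 and no longer a call. Fosb was just short of the line at 0.672 (0.551 to 0.816) and Nr4a2 was at 0.756 (0.687 to 0.832), while Fos was at 0.961 (0.871 to 1.06) and Junb at 1.099 (1.07 to 1.13). The members' median log2 ratio in NK cells was -0.49, beside -0.01 over all genes, 0.08 over 22 other early response genes and -0.10 over 21 genes of the TCR signal response list.

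The make-up of the NK class differed between these libraries. At finer clustering it split into 3 clusters, and the one led by Gzma, Klrg1 and S1pr5, genes of mature circulating NK cells, held 32.6% of NK cells in iNKT KO HFD+HDCA (195 cells), against 3.16% in WT HFD+HDCA (29) and 1.66% in WT HFD (9). The one led by Tnfrsf9 and Xcl1 held 16.4%, against 27.9% and 28.5%. Without the Klrg1-led cluster, Egr1 was still past the line, with 40.7 CPM in iNKT KO and 77.0 CPM in WT HFD+HDCA NK cells and a ratio of 0.529 (0.417 to 0.666). Nr4a1 at 0.770 (0.655 to 0.902) and Nr4a3 at 0.719 (0.551 to 0.930) were no longer calls, Fos and Jun were at 1.06 and 1.05, and the members' median log2 ratio was -0.31. Within the other two clusters taken singly, Egr1 was at 0.517 (0.376 to 0.701) and 0.568 (0.389 to 0.810).

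The TCR signal response list had 6 genes called lower and 1 higher in NK cells of the knockout. Xcl1, a chemokine that draws dendritic cells, had 312 CPM in iNKT KO against 634 CPM in WT NK cells, and Ccl4, a chemokine induced by activation, 652 against 1165 CPM. Without the Klrg1-led cluster these were 423 against 647 CPM for Xcl1 and 689 against 1182 CPM for Ccl4. Cish, a cytokine-induced inhibitor, was the higher one at 1.67. Gadd45b, a stress response gene, was the 1 lower gene of the other early response list at 0.486.

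Nr4a1 was also lower in ILC1 of the knockout, with 41.4 CPM in iNKT KO HFD+HDCA against 95.5 CPM in WT HFD+HDCA, a ratio of 0.434 (0.336 to 0.559). It was the 1 member called there, against 3.82% of genes lower and 3.80% higher. WT HFD ILC1 had 125 CPM of Nr4a1, and the single cell with the most UMIs held 17.7%, 20% and 28.5% of the class total in the 3 libraries. Markers of the ILC1 class also differed between iNKT KO HFD+HDCA, WT HFD+HDCA and WT HFD. The NK marker Eomes had 6.96, 54.0 and 22.6 CPM and the ILC1 marker Cd200r1 184, 107 and 167 CPM, both chosen after their values were seen. Their bearing on the Nr4a1 difference was not tested. In B cells Nr4a1 was at 0.708 (0.633 to 0.791), a log2 ratio of -0.50 that was -0.29 with the hemoglobin-led cluster added, and in other alpha-beta T cells at 0.807 (0.747 to 0.871). In monocytes it was higher in the knockout, at 488 against 381 CPM and a ratio of 1.28 (1.19 to 1.38), and in patrolling monocytes the ratio was 0.942 (0.853 to 1.04). In NK, ILC1, B and other alpha-beta T cells the iNKT KO level was thus the lowest of the 3 libraries. Patrolling monocytes also had their lowest level in iNKT KO, within counting error of WT HFD+HDCA. In monocytes the iNKT KO level lay between those of the wild-type libraries.

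Egr3 was the 1 member called in other alpha-beta T cells, against 2.48% of genes lower and 3.71% higher. It had 0.820 CPM in iNKT KO HFD+HDCA (12 UMIs) against 3.34 CPM in WT HFD+HDCA (69 UMIs), a ratio of 0.245 (0.121 to 0.456), and 3.33 CPM in WT HFD. In NK cells it had 1 UMI in iNKT KO against 27 in WT HFD+HDCA, too few to be counted. In B cells its ratio was 0.802 (0.601 to 1.06) and in ILC1, with 20 against 11 UMIs, 1.01 (0.462 to 2.34). Egr3 and the targeted Traj18 are annotated on the same chromosome. In B cells Nr4a2 was the 1 member called, at 5.75 against 9.97 CPM (0.577, 0.400 to 0.818), against 2.10% of genes lower and 2.50% higher, and Egr1 lay above 1 at 1.37 (1.25 to 1.498). In monocytes 0 members were called, against 3.35% lower and 3.10% higher. Patrolling monocytes also had 0 calls, against 3.53% lower and 5.11% higher, with Fosb just short of the line at 1.49 (1.115 to 1.997), Fos at 1.20 (1.08 to 1.33) and Junb at 1.20 (1.11 to 1.29). Without the barcodes with at least 2 Cd79a UMIs, Fosb had 79.7 CPM in iNKT KO and 50.4 CPM in WT HFD+HDCA patrolling monocytes, which is past 1.5-fold, and the log2 ratios of Fos and Junb were 0.08 and 0.07, against 0.26 each with them.

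Signs of preparation and of other cells moved with some of these differences, and their part in them was not tested. The heat shock genes Hspa1a and Hspa1b, which are also transcribed during dissociation, were higher in the knockout. In other alpha-beta T cells Hspa1a had 24.1 CPM in iNKT KO against 8.67 CPM in WT HFD+HDCA and Hspa1b 62.5 against 17.3 CPM, and in NK cells they had 16.9 against 5.18 and 77.5 against 11.3 CPM. The median knockout log2 ratio of the 10 heat shock genes counted in NK cells was -0.21. With HDCA in wild-type mice these 10 genes were mostly lower in the lymphocytes: 10 of 10 were below 0 in other alpha-beta T cells (median -0.19) and in NK cells (-0.26), 9 in B cells (-0.24) and 8 in iNKT cells (-0.14), while the medians of ILC1 and both monocyte classes were 0.08 to 0.13. Hspa1b had 17.3 CPM in WT HFD+HDCA against 26.4 CPM in WT HFD other alpha-beta T cells and 11.3 against 50.2 CPM in NK cells. The median mitochondrial share of UMIs was 1.63% in iNKT KO HFD+HDCA, 1.44% in WT HFD+HDCA and 1.48% in WT HFD other alpha-beta T cells, and 0.926%, 0.885% and 0.879% in NK cells. Of 10 neutrophil markers, 9, 10 and 9 were read in iNKT KO, WT HFD+HDCA and WT HFD other alpha-beta T cells, and they summed to 772, 221 and 5.58 CPM (Cxcr2 at 0 in iNKT KO and Retnlg at 0 in WT HFD). Plasma cell markers summed to 112, 160 and 1590 CPM there, with 7, 8 and 8 of 8 read (Prg2 at 0 in iNKT KO), and the 23 B cell markers, all read, to 577, 489 and 771 CPM. Leaving out T cells that lay in B, myeloid or erythroid clusters moved none of the 48 values recomputed. In NK cells all 10 T cell markers were read and summed to 444, 443 and 414 CPM in the 3 libraries. The TCR delta chain genes Trdc and Trdv4, chosen after their values were seen, had 3.82, 59.5 and 53.4 CPM and 18.5, 125 and 120 CPM there. In ILC1 of the same libraries Trdc had 1.83, 11.9 and 16.5 CPM and Trdv4 44.3, 130 and 102 CPM. Whether these genes marked other cells or went with the knockout itself was not tested. Classical monocyte markers summed to 2073, 1243 and 1478 CPM in NK cells, with 16, 16 and 13 of 22 read and Clec4a3, Lyz1 and Ifitm6 at 0 in all 3. Ly6c2, which NK cells also express, made up 1679, 906 and 1105 CPM of that, and the other markers 393, 337 and 373 CPM.

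Across the 20 points formed by class and library, the members did not share 1 pattern. Fos and Jun levels, as log2(CPM + 5), had a Pearson r of 0.87, Jun and Nr4a1 0.84, Nr4a2 and Nr4a3 0.55, Nr4a1 and Nr4a3 -0.56, and Fos and Nr4a3 -0.89. These points share libraries and classes and describe this order of classes only. Of 10387 genes searched in the same way, the genes nearest to Nr4a1 were Nfkbiz (0.97) and Diaph2 (0.97), to Fos H2-T24, Erp29 and Plekho1 (each 0.97), and to Nr4a2 Ccl3 (0.92), Ccl4 (0.91) and Pycard (0.91). Egr1 and Egr2 had the weakest nearest genes, Sdad1 at 0.80 and Dnajc30 at 0.76. Within a class, members were only loosely read in the same cells: the median phi between pairs of members, in cells thinned to 2000 UMIs, was 0.02 to 0.05, and at this depth a weak value is no finding.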

How the data were processed

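The authors deposited UMI counts per gene and cell made with Cell Ranger 8.0.1, per the file headers, together with TCR contig tables; the submitters' processing notes name the builds mm10 and GRCm39 without saying which file used which. The labels describe a CD45 sort, while the series title speaks of CD4; other diets of the design were not analysed here. Cells with at least 200 genes and at most 10% mitochondrial UMIs were kept, doublets called by Scrublet in scanpy 1.11.5 (4.00%, 4.85% and 3.52% of barcodes in iNKT KO HFD+HDCA, WT HFD+HDCA and WT HFD) were removed, and the rest were clustered (2000 variable genes, 30 components, 20 neighbours, Leiden resolution 1). Of 27 clusters, those with at least 3 markers of a class among their leading genes were named; T cells were classed by their contigs. The median was 5119.5, 5463.5 and 5625 UMIs per kept cell. CPM is the gene's summed count in a class of a library over the class total. Ratios have conditional exact intervals and levels exact Poisson intervals. Shares have exact Clopper-Pearson intervals, from cells thinned to 2000 UMIs. With 1 library per group no test was run.

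The 10 members were given in every class; of each other list, all genes with at least 50 UMIs in the pair were counted and only genes among the 2 highest and 2 lowest ratios named, and for likeness the 3 nearest genes, among genes with at least 500 UMIs. The members and lists were chosen with earlier results of these data known. Alternatives changed the filters, clusters, thinning, cell weights, UMI minimum and fold. The calculation was tested on simulated data. The result of 1 marker list is not reported here.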

Additional observations from a re-analysis of the deposited data

Results flagged for a closer look

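Nr4a2 went opposite ways with HDCA in wild-type classes. Its WT HFD+HDCA to WT HFD ratio was 1.63 in iNKT cells, against 0.641 in ILC1 and 0.589 in patrolling monocytes. The difference between classes was not tested, since each group was 1 library.

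Egr2 and Egr3 went opposite ways between iNKT and other alpha-beta T cells of the wild-type libraries. The iNKT to other alpha-beta T ratio of Egr2 was 1.69 (0.901 to 2.99) in WT HFD+HDCA and 0.206 (0.0550 to 0.543) in WT HFD. That of Egr3 was 1.81 (1.07 to 2.97) in WT HFD+HDCA and 0.636 (0.223 to 1.49) in WT HFD. The intervals of Egr2 in WT HFD+HDCA and of Egr3 in WT HFD thus spanned 1. The difference between the libraries was not tested either, and the iNKT side of it was 4 to 22 UMIs.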

How the results depend on the processing

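No paired analysis was possible because each group was 1 library, and for the same reason no replicate could be left out. Of 1178 recomputed values, 1084 moved by less than the counting interval, 92 moved by more and 2 reversed, counting as reversed only a called value that changed sign; 39 of the 92 did so on thinning. The sign also changed in 45 values that were no call, 12 of them by more than the counting interval. The 2 reversals were the log2 ratio of Egr3 between iNKT and other alpha-beta T cells of WT HFD, 0.21 with equal weight per cell and 1.25 on thinning; the cause was not tested.

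Counts of calls moved as follows. Members higher in iNKT than other alpha-beta T cells (2 as reported) were 4 on thinning, 1 with doublets kept, and 0 without the top cell, with at least 100 UMIs or at 2-fold. Members lower there (5) were 3 at 2-fold. Members higher with HDCA (1) were 2 with equal weight per cell or without the top cell, 3 with at least 20 UMIs and 0 at 2-fold, and members lower (9) were 1 at 2-fold. Members higher in the knockout (0) were 2 with equal weight, and 1 without the top cell, with doublets kept or without the patrolling barcodes with at least 2 Cd79a UMIs, an alternative chosen after the data were seen; members lower (6) were 2 at 2-fold and, an alternative also chosen later, 4 without the Klrg1-led NK cluster. On thinning, the knockout log2 ratio of Egr2 in other alpha-beta T cells was -2.38 (-0.30 as reported) and that of Egr1 in patrolling monocytes -0.50 (0.28). Depth limits Egr2 and Egr3 most, since both had under 50 UMIs in many pairs.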
